A study of Mus musculus with 7 samples.

Results

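The genes described here are those of glycolysis and glycogen metabolism, 41 genes that take glucose into the cell, split it to pyruvate and lactate, and build or break down glycogen. A gene was a member if its symbol stood in the symbol field of a row of the deposited expression table. Of the 41 genes, 39 had a row among the 11642 rows of the table, 35 passed the filter on low values and were tested with 11086 genes in all, and Slc2a3, Slc2a4, Pfkfb1 and Aldoc lay under the filter. Pygl and Phkg1 are not analysed here.

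C2C12 is a mouse myoblast line that stops dividing and fuses into myotubes when serum is withdrawn. The cells had been treated either with a scramble siRNA (si-SCR, 2 samples) or with an siRNA against lnc-SMaRT, a long non-coding RNA of differentiating muscle (si-SMaRT, 2 samples), and all 4 samples were total RNA taken on day 2 of differentiation. No sample was an untreated culture or a second siRNA. The study describes the samples of a group as independent cell populations of this line. The limma p-values rest on these 2 samples a group, with the variance of each gene drawn towards that of genes of similar level. A limma standard error is therefore not the spread of that gene's own samples alone. RNA pulled down with probes against lnc-SMaRT or against LacZ gave 1 library each.

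Glycolysis consumes ATP in its first steps, up to the splitting of a fructose bisphosphate by aldolase, and returns ATP in the later ones. Many of its enzymes exist as several isoforms from separate genes, and differentiating muscle adds or switches to forms such as the muscle phosphofructokinase (Pfkm), the muscle phosphoglycerate mutase (Pgam2), the muscle enolase (Eno3) and the muscle glycogen phosphorylase (Pygm), beside forms that most cells carry (Pfkl, Pgam1, Eno1, Pygb). Muscle also stores glycogen, which Pygm opens during contraction.

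Expression was given as RPKM, the reads of a gene scaled by its length and by the size of the library, which allows levels to be compared between genes. The TMM effective library sizes read back from the steps of the RPKM values were 11291255 to 14312935 reads per sample. The row of lnc-SMaRT held 19.1 and 15.9 RPKM in si-SCR and 2.88 and 3.65 RPKM in the depleted cells (log2 fold change -2.39, SE 0.28, limma adjusted p = 0.000882). The si-SMaRT samples differed from each other with the GC content of the gene: over 10042 protein-coding genes the log2 difference between them (sample 2 minus 1) and the GC content of the exons had Spearman's rho = -0.86, given as a description over genes that share the same libraries. For the si-SCR samples (2 minus 1) that rho was 0.37, and for the si-SMaRT mean minus the si-SCR mean it was -0.31. The glycolytic genes are rich in GC, with a median of 53.3% against 49.1% for all tested genes. The difference between the si-SMaRT samples is therefore given beside the results it touches. The study's read statistics also list far more read pairs removed as ribosomal or transfer RNA in the first si-SMaRT sample than in any other. Whether that is tied to the GC trend was not tested.

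In control cells the glycolytic enzymes were among the most abundant transcripts. Eno3 stood first among the 39 genes at 1132 and 1021 RPKM in si-SCR, above 99.6% of all rows. Gapdh, the glyceraldehyde phosphate dehydrogenase, followed at 818 and 754 RPKM. Aldoa, the muscle aldolase, lay at 744 and 777 RPKM, so these neighbours in the order overlapped in their samples. Tpi1, the triose phosphate isomerase, had 607 and 511 RPKM and overlapped with Pkm, the pyruvate kinase, at 543 and 516 RPKM. The other end of the range was held by the glucose transporters Slc2a3 (GLUT3, 0.142 and 0.107 RPKM) and Slc2a4 (GLUT4, 0.477 and 0.509 RPKM). The 17 genes of the enzymes from hexokinase to pyruvate kinase summed to 5060 and 4772 RPKM in si-SCR and to 4080 and 2893 RPKM in si-SMaRT. Their sum was 0.955%, 0.996%, 0.951% and 0.747% of the summed RPKM of all rows in the same order. By this share the first si-SMaRT sample lay close to the controls and the second below all others. By the sum itself both si-SMaRT samples lay below both controls. The share also depends on the summed RPKM of all rows, which was lower in both si-SMaRT samples.

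**Figure D1:**
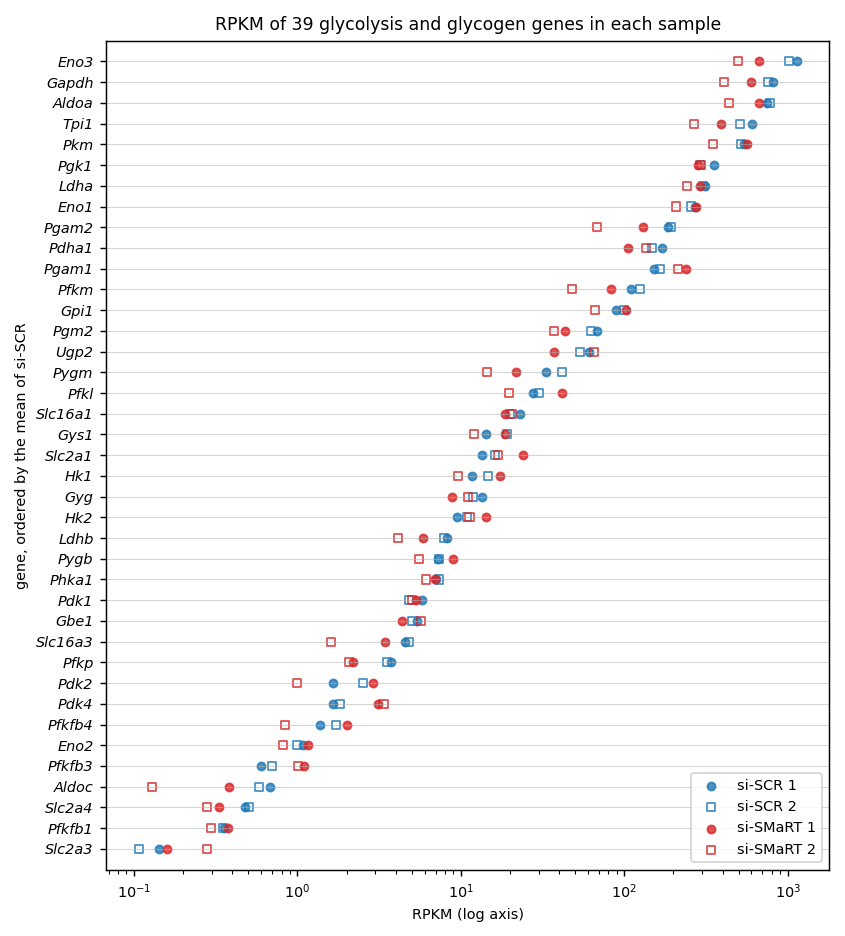
RPKM of the 39 measured genes on a log axis, with genes ordered by their mean in si-SCR; filled circles are samples 1 and open squares samples 2, blue for si-SCR and red for si-SMaRT. Levels ran from Slc2a3 near 0.125 RPKM to Eno3 near 1077 RPKM, and the red points of Pygm, Pgam2, Pfkm and Eno3 lay to the left of both blue ones.

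The question put to these genes was whether they differed between depleted and control cells. None of the 35 passed an adjusted p of 0.05 in the limma fit over all genes, in which 56 of 11086 genes (0.505%) did. Without adjustment 11 of the 35 had p under 0.05, beside 9.09% of all genes. Lower in si-SMaRT were 10 of them (Pfkm, Pfkp, Tpi1, Gapdh, Pgam2, Eno3, Ldhb, Slc16a3, Pygm and Pgm2), beside 5.6% of all genes, and Pdk4 was higher, beside 3.49%. In 15 genes every depleted sample was below every control, 42.9% of the members against 20.4% of all genes tested, and in 5 every depleted sample was above every control (14.3% against 20.2%). The median log2 fold change of the 35 was -0.21 beside 0.02 for all genes. In bulk RNA, fewer cells that express these genes and less of their RNA per cell cannot be told apart. The median log2 difference of the second si-SMaRT sample from the first was -0.47 for the members and -0.01 for all genes.

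When the trend with GC content was removed from each sample, 8 members passed the threshold by limma, where 4.88% of 10400 genes did (2.67% lower and 2.2% higher). The 6 lower ones were Pygm (log2 fold change -0.91, adjusted p = 0.0129), Pgam2 (-0.84, 0.0277), Slc16a3 (-0.81, 0.0387), Pfkm (-0.77, 0.0395), Pfkp (-0.77, 0.0378) and Pgm2 (-0.64, 0.0371). The higher ones were Pdk4 (0.77, adjusted p = 0.0462) and Slc2a1 (0.59, 0.0432). These calls depend on that correction, and with a replicate block added to it only Pygm passed (1.42% of all genes). The count also turned on single si-SMaRT samples: 15 members passed without the first of them, where 26.2% of all genes did, and 4 without the second, where 8.49% did. Without the second, log2 fold changes lay closer to 0, at -0.53 for Pgam2, -0.51 for Pfkm, -0.51 for Tpi1, -0.45 for Slc16a3, -0.45 for Ldhb, -0.39 for Gapdh and -0.19 for Aldoa, and without the first, Slc2a1 came to 0.20 and Hk2 to 0.15. Pygm went from -1.06 to -0.77 without the second, and Eno3 from -0.90 to -0.69. With voom on the recovered reads 0 members passed, beside 1.01% of all genes.

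**Figure D2:**
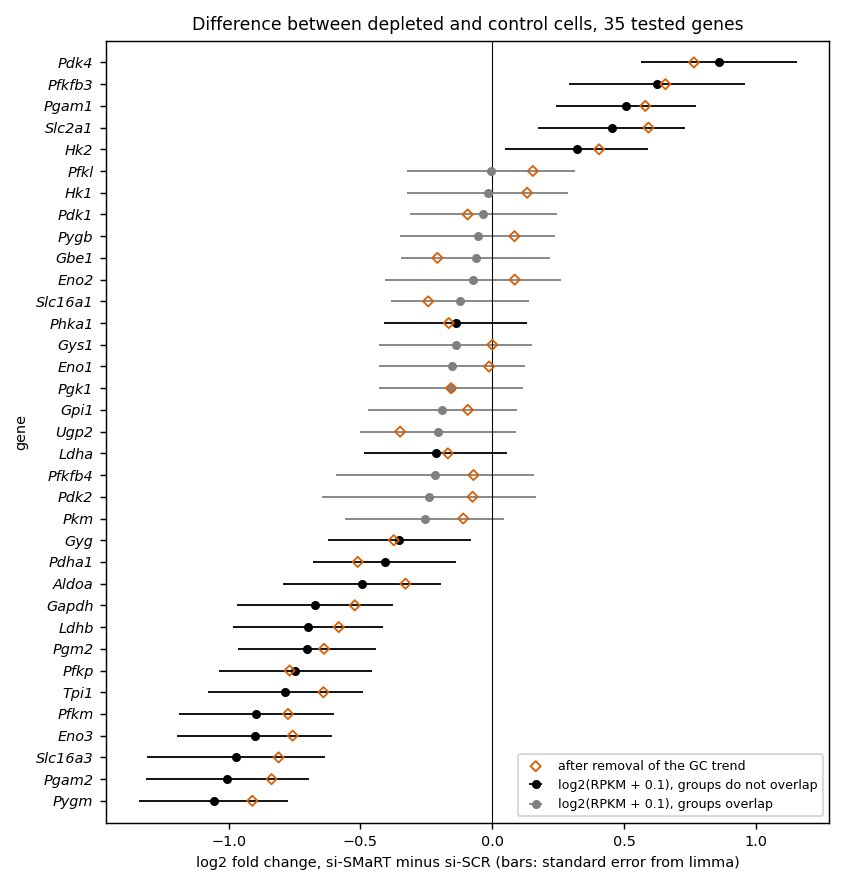
Log2 fold change of the 35 tested genes (si-SMaRT minus si-SCR) on the log2(RPKM + 0.1) scale, with the standard error from limma as bars; black points are genes whose groups do not overlap, grey points genes whose groups do, and open diamonds the value after removal of the GC trend. Values ran from -1.06 for Pygm to 0.86 for Pdk4. Of the 35 points 30 lay below 0, beside 5291 of all 11086 tested genes.

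Glucose enters muscle cells through GLUT1 (Slc2a1) and, under insulin, through GLUT4 (Slc2a4). Slc2a1 had 13.5 and 16.1 RPKM in si-SCR and 24.1 and 17.0 RPKM in si-SMaRT. Both depleted samples were above both controls, with a log2 fold change of 0.45 (SE 0.28, limma adjusted p = 0.678). Slc2a4 had 0.477 and 0.509 RPKM in si-SCR and 0.331 and 0.281 RPKM in si-SMaRT, values that rest on 21, 25, 13 and 14 reads. Slc2a3 rested on 13, 11, 13 and 29 reads. Neither low transporter was tested, and their depth allows no firmer statement.

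Hexokinase traps glucose in the cell as a phosphate. Its muscle form Hk2 had 9.52 and 10.9 RPKM in si-SCR and 14.3 and 11.3 RPKM in si-SMaRT, so that the groups did not overlap but the second si-SMaRT sample was close to the second control. Hk1, the form of most tissues, had 11.7 and 14.6 RPKM in si-SCR and 17.4 and 9.56 RPKM in si-SMaRT, on either side of the controls. Gpi1, the isomerase of the next step, was likewise split, with 102 and 66.1 RPKM in si-SMaRT around 88.6 and 99.0 RPKM in si-SCR.

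Phosphofructokinase commits the sugar to glycolysis. Pfkm (GRCm38, chr15:98092589-98132451, plus strand) had 110 and 125 RPKM in si-SCR and 82.4 and 48.2 RPKM in si-SMaRT. Both depleted samples were below both controls, with means of 117.5 ± 10.7 and 65.3 ± 24.2 RPKM (SD, n = 2) and a log2 fold change of -0.89 (SE 0.29, limma adjusted p = 0.258). The liver form Pfkl, at 27.5 and 30.1 RPKM in si-SCR and 41.7 and 19.7 RPKM in si-SMaRT, overlapped and had a log2 fold change of -0.00. The platelet form Pfkp had 3.76 and 3.52 RPKM in si-SCR and 2.20 and 2.06 RPKM in si-SMaRT. It too was lower in both depleted samples (-0.75, SE 0.29, limma adjusted p = 0.383), and with a GC content of 47.2% its si-SMaRT samples differed by only -0.09 on the log2 scale.

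The bifunctional enzymes of the Pfkfb genes make and remove the fructose bisphosphate that activates phosphofructokinase. Pfkfb3, the form with the stronger kinase, had 0.596 and 0.702 RPKM in si-SCR and 1.101 and 1.007 RPKM in si-SMaRT, from 57 and 75 against 94 and 109 reads. The groups did not overlap (log2 fold change 0.63, SE 0.33, limma adjusted p = 0.606). Pfkfb4 overlapped, and Pfkfb1 overlapped on 17 to 20 reads per sample.

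Of the remaining enzymes up to the triose phosphates, the aldolase Aldoa had 667 and 436 RPKM in si-SMaRT, below both controls, with a log2 fold change of -0.50 (SE 0.30, limma adjusted p = 0.665). Aldoc, the brain aldolase, gave 28 and 27 reads in si-SCR and 14 and 6 reads in si-SMaRT and was not tested. Tpi1 had 392 and 266 RPKM in si-SMaRT, also below both controls (-0.79, SE 0.29, limma adjusted p = 0.348).

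In the steps that return ATP, Pgam2 and Eno3 had the lowest log2 fold changes. Pgam2 (chr11:5801640-5803733, minus strand) had 186 and 193 RPKM in si-SCR and 131 and 68.0 RPKM in si-SMaRT (log2 fold change -1.01, SE 0.31, limma adjusted p = 0.230). Its samples within si-SMaRT differed by -0.94 on the log2 scale at a GC content of 56.9%, nearly as much as the groups did. Pgam1, the form of most tissues, had 152 and 165 RPKM in si-SCR and 239 and 213 RPKM in si-SMaRT, so it lay higher in both depleted samples (0.51, SE 0.27, limma adjusted p = 0.604). The mutase isoforms therefore stood in opposite order in the groups: Pgam2 was above Pgam1 in both controls and below it in both depleted samples.

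Eno3 (chr11:70657202-70662513, plus strand) had 1132 and 1021 RPKM in si-SCR and 669 and 496 RPKM in si-SMaRT. All values of the depleted cells were lower, with means of 1077 ± 78.1 and 582 ± 122 RPKM (SD, n = 2) and a log2 fold change of -0.90 (SE 0.29, limma adjusted p = 0.258). Eno1, the enolase of most tissues, had 272 and 257 RPKM in si-SCR and 274 and 207 RPKM in si-SMaRT and overlapped. Eno2, the neuronal form, lay between 0.817 and 1.17 RPKM in the 4 samples and overlapped too.

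Gapdh had 599 and 406 RPKM in si-SMaRT, below both controls (-0.67, SE 0.30, limma adjusted p = 0.496). Pgk1, the phosphoglycerate kinase, overlapped at 281 and 296 RPKM in si-SMaRT and 354 and 291 RPKM in si-SCR. Pkm overlapped as well, at 566 and 347 RPKM in si-SMaRT. Its RPKM is for the whole gene and does not separate the splice forms of pyruvate kinase. Gapdh, Pgk1, Eno1, Pgam1, Ldha and Aldoa have near-identical copies elsewhere in the genome, and how reads were shared with those copies was not tested.

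Pyruvate is either reduced to lactate or oxidised in mitochondria. Ldha, the lactate dehydrogenase of muscle, had 312 and 302 RPKM in si-SCR and 290 and 241 RPKM in si-SMaRT, with a log2 fold change of -0.21. Ldhb, the heart form, had 8.20 and 7.93 RPKM in si-SCR and 5.87 and 4.14 RPKM in si-SMaRT (-0.70, SE 0.28, limma adjusted p = 0.424). Both dehydrogenases were lower in both depleted samples, Ldhb by more.

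Slc16a3 (MCT4), which exports lactate from glycolytic muscle, had 4.58 and 4.82 RPKM in si-SCR and 3.41 and 1.60 RPKM in si-SMaRT. The second depleted sample was far below the first, which was itself below both controls (-0.97, SE 0.34, limma adjusted p = 0.301). Its GC content was 56.5%, and the si-SMaRT samples differed by -1.05 on the log2 scale. Slc16a1 (MCT1), the transporter of most cells, overlapped at 18.7 and 20.6 RPKM in si-SMaRT.

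Pdha1, a subunit of the pyruvate dehydrogenase that feeds the citric acid cycle, had 105 and 137 RPKM in si-SMaRT, below 171 and 148 RPKM in si-SCR (-0.41, SE 0.27, limma adjusted p = 0.717). Pdk4, a kinase that switches this enzyme off, had 1.64 and 1.83 RPKM in si-SCR and 3.10 and 3.36 RPKM in si-SMaRT. It gave the highest log2 fold change of the 35 genes, 0.86 (SE 0.30, limma adjusted p = 0.297), and the samples of each group lay close together. The other kinases, Pdk1 and Pdk2, overlapped between the groups.

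In glycogen metabolism, Pygm (chr19:6384399-6398459, plus strand), which releases glucose units from glycogen, had 33.0 and 41.5 RPKM in si-SCR and 21.7 and 14.5 RPKM in si-SMaRT. Both depleted samples were below both controls, at 37.2 ± 6.02 and 18.1 ± 5.06 RPKM (SD, n = 2), and the log2 fold change of -1.06 (SE 0.28, limma adjusted p = 0.138) was the lowest of the 35. Pygb, the brain form, had 7.28 and 7.31 RPKM in si-SCR and 8.90 and 5.54 RPKM in si-SMaRT, around the controls.

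The phosphoglucomutase row labelled Pgm2 is the gene that the GENCODE M21 annotation calls Pgm1 (chr4:99929414-99987294, plus strand), which links glycogen to glycolysis. It had 67.7 and 62.8 RPKM in si-SCR and 43.4 and 37.0 RPKM in si-SMaRT, lower in both depleted samples (-0.70, SE 0.26, limma adjusted p = 0.346). Gyg, the glycogenin that primes a glycogen particle, had 13.5 and 11.9 RPKM in si-SCR and 8.84 and 11.1 RPKM in si-SMaRT (-0.35). Phka1, the muscle alpha subunit of phosphorylase kinase, was lower without overlap by a small step (-0.14). The genes of glycogen synthesis Gys1, Gbe1 and Ugp2 overlapped between the groups. Ugp2, at a GC content of 41.2%, had 37.3 and 65.3 RPKM in the si-SMaRT samples, the reverse order of the GC-rich genes.

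**Figure D3:**
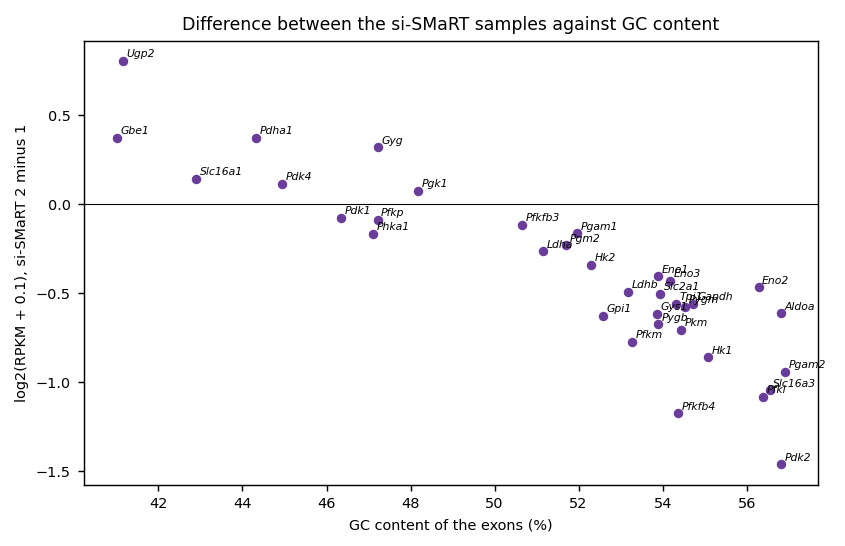
Log2 difference between the si-SMaRT samples (2 minus 1, on the log2(RPKM + 0.1) scale) against the GC content of the exons for the 35 tested genes. Ugp2 (0.80) lay highest at a low GC content and Pdk2 (-1.46) lowest at 56.8%. Removal of the GC trend from each sample also takes out any GC-linked difference between the groups. The part of the plotted trend in the fold changes was therefore not measured apart from it.

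The comparison of isoforms was made as a ratio within each sample, which depends on how that sample was scaled only through the pseudocount of 0.1 RPKM added to each gene on the log2 scale. For the low pairs Slc2a4 to Slc2a1 and Pfkfb1 to Pfkfb3 this pseudocount weighs on the log2 difference, which lay between -1.16 and -0.62 and between -0.80 and -0.34 over the settings tried. Of 16 pairs of a muscle form and another form, 13 had both rows, and in 8 of them the ratio was lower in both si-SMaRT samples than in both si-SCR samples. In 3 pairs it was higher, and in 2 the groups overlapped. The 8 lower pairs are not separate from each other, since Eno3 stands in both enolase pairs. Slc2a4 and Pfkfb1, in the low pairs, lay under the filter on low values. How often pairs of other genes separate the groups was not tested. With 2 samples against 2 the two-sided exact permutation test cannot give a p below 0.333, the value of each of the 11 pairs without overlap (adjusted over the 13 pairs 0.394). This test restates that the groups do not overlap and could pass no threshold, so the differences are given as values beside the spread of the samples.

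The ratio of Pgam2 to Pgam1 was 1.22 and 1.17 in si-SCR and 0.548 and 0.320 in si-SMaRT, a log2 difference of -1.51. The share of Pgam2 in the RPKM of both mutases was 55.0% and 53.9% in si-SCR and 35.4% and 24.2% in si-SMaRT. The ratio of Pygm to Pygb was 4.53 and 5.67 in si-SCR and 2.43 and 2.62 in si-SMaRT (log2 difference -1.002). The ratio of Pfkm to Pfkl was 4.004 and 4.156 in si-SCR and 1.98 and 2.45 in si-SMaRT (-0.89). In these pairs the samples of a group lay much closer to each other than to the other group, apart from Pgam2 in si-SMaRT.

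The ratio of Eno3 to Eno1 was 4.16 and 3.97 in si-SCR and 2.44 and 2.39 in si-SMaRT, a log2 difference of -0.75. The GC contents of this pair were 54.2% and 53.9%, and its si-SMaRT samples, which were far apart in either gene, gave almost the same ratio. Pygm and Pygb were matched in the same way, at 54.5% and 53.9%. Eno3 to Eno2 (-0.83), Slc16a3 to Slc16a1 (-0.85), Slc2a4 to Slc2a1 (-1.001) and Pfkfb1 to Pfkfb3 (-0.69) were lower as well. In the last of these pairs Pfkfb3 was higher and Pfkfb1 overlapped. Slc16a3 and Slc16a1 differed most in GC content, at 56.5% and 42.9%, and the first si-SMaRT sample of that pair, at a ratio of 0.182, was near the control of 0.199.

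Some pairs did not go this way. Hk2 to Hk1 was higher in si-SMaRT by 0.34, although the ratio of 0.822 in the first si-SMaRT sample hardly differed from the 0.817 of the first control. Ldha to Ldhb was higher by 0.48, at 38.0 and 38.1 in si-SCR and 49.4 and 58.3 in si-SMaRT. Aldoa to Aldoc was higher by 0.65, but Aldoc rests on few reads, and with a pseudocount of 1 the difference was -0.11. Pfkm to Pfkp overlapped, with both genes lower, and so did Phka1 to Phka2. The 8 lower pairs were lower without overlap also under the 4 other settings that keep all samples (pseudocounts of 1 and 0.01, quantile normalization and removal of the GC trend).

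**Figure D4:**
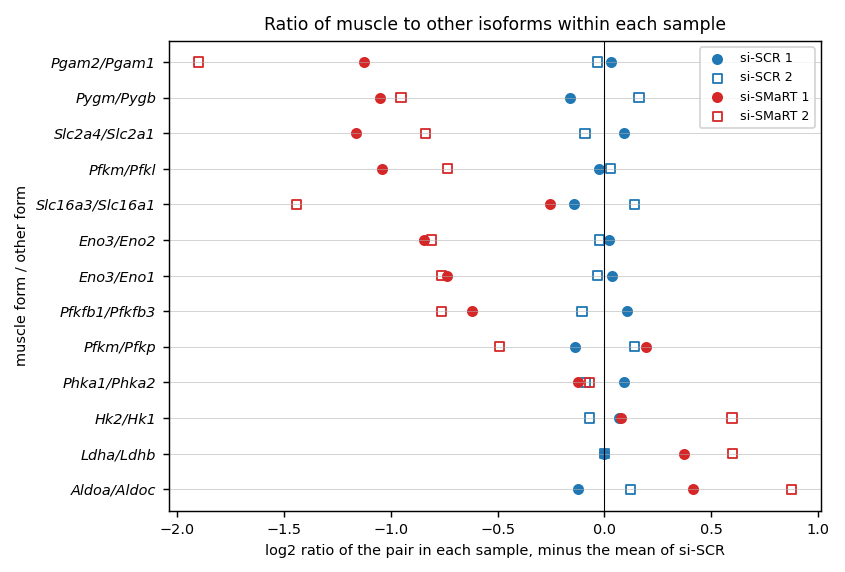
Log2 ratio of the muscle form to the other form of 13 isoform pairs in each sample, minus the mean of the si-SCR samples; filled circles are samples 1, open squares samples 2, blue si-SCR and red si-SMaRT. The red points lay left of the blue ones in 8 pairs, farthest for Pgam2/Pgam1, and right of them for Hk2/Hk1, Ldha/Ldhb and Aldoa/Aldoc.

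Counted over genes, 8 of the 9 tested muscle forms of these pairs were lower without overlap, 88.9% against 20.4% of all genes, and Hk2 was higher, with a median log2 fold change of -0.89. Of the 12 tested other forms, 2 were lower (Pfkp and Ldhb) and 3 higher (Slc2a1, Pfkfb3 and Pgam1) without overlap, with a median of -0.05. These shares of 16.7% and 25.0% lay near the 20.4% and 20.2% of all genes. The median GC contents of these sets were 54.2% and 53.5%.

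Markers of the myotube lay lower beside the muscle isoforms, and their part in the isoform values was not tested. Of 14 listed myotube markers 13 were tested, and 11 of them were lower in si-SMaRT without overlap, 84.6% against 20.4% of all genes, with a median log2 fold change of -0.73 and none past the threshold. Their summed RPKM was 17684 and 16644 in si-SCR and 10964 and 8129 in si-SMaRT. Ckm, the muscle creatine kinase, had a log2 fold change of -1.25 (SE 0.32, limma adjusted p = 0.106). The 1 myotube marker that was higher without overlap was Myh8 (0.60). Of 12 markers of dividing myoblasts 11 were tested, Id3 (1.60, limma adjusted p = 0.0232) and Ccnd1 (1.36, 0.0356) were higher past the threshold, and the median was 0.25. Without overlap 4 of the 11 were higher, 36.4% against 20.2% of all genes. The 1 lower without overlap was Id2 (-0.58), 9.09% against 20.4%. The summed RPKM of the markers of dividing myoblasts was 266 and 226 in si-SCR and 245 and 341 in si-SMaRT. The median GC content was 53.8% for the myotube markers and 46.4% for those of dividing myoblasts. Their median log2 differences between the si-SMaRT samples (2 minus 1) were -0.32 and 0.40. With the GC trend removed, the median log2 fold changes were -0.56 over 13 myotube markers and 0.20 over 10 of dividing myoblasts. None of 6 adipocyte markers had a row, and of the endothelial, macrophage and neuronal lists 1 marker each did (Egfl7, Cd68 and Tubb3), none without overlap.

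The rest of the pathway was read from lists of related genes. None of their genes passed the threshold in the limma fit. Counts without overlap are to be read against 20.4% of all genes lower and 20.2% higher. Of 6 tested further glycolytic enzymes, 2 were lower and 1 higher without overlap (33.3% and 16.7%). Bpgm, which makes the bisphosphoglycerate of red cells, had 7.86 and 7.32 RPKM in si-SCR and 4.91 and 4.63 RPKM in si-SMaRT (log2 fold change -0.66, SE 0.27, limma adjusted p = 0.440). Galm, the aldose epimerase, had -0.42 and Adpgk, an ADP-dependent glucokinase, 0.30. Of the 11 genes of gluconeogenesis and the shuttles, 6 were lower (54.5%) and 0 higher without overlap, with Slc37a4 (-0.69), Pck2 (-0.51) and Gpd1l (-0.48) the farthest.

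Of the 10 genes that bring pyruvate into mitochondria, 2 were lower and 2 higher without overlap, close to the shares over all genes. Pdk3, another kinase of pyruvate dehydrogenase, had 8.49 and 8.73 RPKM in si-SCR and 12.3 and 13.1 RPKM in si-SMaRT (0.55, SE 0.27, limma adjusted p = 0.556), in the same direction as Pdk4. Pdp2, a phosphatase that reverses these kinases, had 3.95 and 4.55 RPKM in si-SCR and 2.62 and 2.65 RPKM in si-SMaRT (-0.67, SE 0.29, limma adjusted p = 0.478). Pdhx, which holds the enzyme complex together, had a log2 fold change of -0.39. Pdk3 and Pdhx passed neither with nor without the GC trend, and Pdp2 passed once the trend was removed (-0.67, limma adjusted p = 0.0491), as did Bpgm (-0.66, 0.0371).

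Of 17 tested further glycogen genes 4 were lower and 2 higher without overlap (23.5% and 11.8%). Stbd1, which ties glycogen to membranes, had -0.52, Prkag3, a muscle subunit of the AMP-activated kinase, -0.49, and Gsk3b, a kinase of glycogen synthase, 0.46. In the pentose phosphate pathway 3 of 8 were lower (37.5%) and 0 higher, with Taldo1 at -0.44, G6pdx at -0.39, and Pgls, whose row is joined with another gene, at -0.82. Among 15 tested regulators of glycolytic genes 4 were lower and 3 higher without overlap (26.7% and 20%).

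Among the regulators, the transcription factor Myc had a log2 fold change of 0.81 and Egln3, an oxygen-sensing hydroxylase, -0.71, and both passed once the GC trend was removed (0.96, limma adjusted p = 0.0110, and -0.66, 0.0310). Mlx and Mlxip (MondoA) form the dimer that answers to glucose, and Txnip is its best known target. Their log2 fold changes were -0.24, 0.28 and -0.20.

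Mlx dimers bind E boxes with the letters CACGTG, so this word was searched on both strands of the RefSeq promoters of the members (GRCm38.p6, windows of 300 bases around a gene start). Slc2a3 and Slc2a4 were without an entry, and 39 genes matched 57 promoters. Of these promoters 10.5% held CACGTG, beside 7.15% of all 32851 promoters and 10.3% of the 10736 promoters of tested genes. The matches are shown because they are the members that carry the full word, in 30 bases each with the word in capitals. They comprise Pfkm (chr15:98092441-98092470, plus strand), Ldha (chr7:46845647-46845676 and chr7:46845744-46845773, plus strand), Slc16a1 (chr3:104638452-104638481, plus strand), Pfkfb3 (chr2:11502126-11502155, minus strand), Gyg (chr3:20155091-20155120, minus strand) and Pdk2 (chr11:95041480-95041509, minus strand).
Pfkm: aattaagtatgcCACGTGaagtaagtaatt
Ldha, far match: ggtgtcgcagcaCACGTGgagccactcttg
Ldha, near match: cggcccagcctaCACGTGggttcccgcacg
Slc16a1: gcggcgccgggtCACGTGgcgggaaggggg
Pfkfb3: cacccttctctcCACGTGaaagggggctgg
Gyg: agcctgcgcggcCACGTGacggccgctata
Pdk2: ctcgaggagagcCACGTGtcgaagcgcaag

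The words were placed by the start of the RefSeq transcript whose promoter holds them. In Ldha, Pfkfb3 and Gyg that start lies inside the gene as GENCODE M21 draws it. The words lay 136 bases before the RefSeq start in Pfkm, 145 and 48 bases before it in Ldha, 200 in Slc16a1, 53 in Pfkfb3 and 126 in Pdk2, and 8 bases after it in Gyg. Among these genes Pfkm, Ldha and Gyg were lower and Pfkfb3 higher in si-SMaRT without overlap, and Slc16a1 and Pdk2 overlapped. The word ACGTG, which lies within CACGTG and is the core of the hypoxia response element, was in 42.1% of the members' promoters, in 19.6% of all promoters and in 26.02% of those of tested genes. GCGTG, the other core of that element, was in 52.6%, 32.4% and 51.9%, and the muscle E box CANNTG, which also covers CACGTG, in 70.2%, 72.3% and 62.7%. The median GC content of the promoters was 60.3%, 52.7% and 61.0% in the same order. A match is a description of letters and not a binding site.

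No pull-down peak overlapped an exon of the 41 genes on the same strand. The deposited lists held 345 peaks for lnc-SMaRT, on exons of 76 genes, and 336 peaks for LacZ, on exons of 41 genes. Few of all annotated genes thus held a peak, and the absence of peaks is not a trait particular to the members. With 1 library each, binding below the authors' calling threshold was not tested.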

How the data were processed

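Total RNA of 4 samples of C2C12 cells was used, 2 treated with si-SCR and 2 with si-SMaRT, grouped by the labels. The authors took out adapters with Trimmomatic and reads of ribosomal or transfer RNA with Bowtie 2, mapped what was left to GRCm38 with TopHat2 and counted it per Ensembl gene with htseq-count. Genes of low CPM had been left out, and the authors made the deposited RPKM values with edgeR after TMM scaling. Genes were tested with limma 3.58.1 in R 4.3.3 on log2(RPKM + 0.1) with a trended prior, over genes with a mean of at least 0.5 RPKM, and p-values were adjusted by the Benjamini-Hochberg method at 0.05. On this scale the change of low genes is understated. Groups were said not to overlap where every sample of a group lay below every sample of the other. The authors called peaks with Piranha, whose p-value stands beside each deposited peak, with the input as covariate for LacZ. For lnc-SMaRT the methods name calls against the input and against LacZ, and the list does not say which it holds.

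Reads were worked back from the steps of the RPKM values within 0.02 reads, and gene lengths and GC content came from GENCODE M21. Rows of joined genes (576 of 11642) were kept as deposited. The members, isoform pairs, markers and pathway lists were chosen with earlier results of these data known. Named were all members and, of each pathway list, the genes past the threshold and the 3 with the largest change among those whose groups do not overlap. Of the regulators, 1 gene that this rule names is not reported here. The regulators Mlx, Mlxip and Txnip, and Ckm, Myh8, Id2, Id3, Ccnd1, Egfl7, Cd68 and Tubb3 were named after their values were seen. Alternatives covered pseudocounts of 1 and 0.01, no filter and a mean of at least 1 RPKM, quantile normalization, no trend, a replicate block, leaving out each sample, removal of the GC trend by loess (span 0.3), voom on the recovered reads, and peak overlap of 50 bases. Bedtools 2.31.1 and scipy 1.17.1 were used for overlaps and exact permutation tests.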

Additional observations from a re-analysis of the deposited data

How the results depend on the processing

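No member passed the threshold under either other pseudocount, either other filter, quantile normalization, no trend, voom or the replicate block, nor without either si-SCR sample. Members called numbered 0 to 15 when 1 sample was left out, 15 without si-SMaRT replicate 1 and 4 without si-SMaRT replicate 2 (Slc2a1, Pdk4, Pygm and Ugp2), where 26.2% and 8.49% of all genes passed and the lone sample was assumed to vary like the others. They numbered 8 with the GC trend removed and 1 with the replicate block added to it. Called genes of the pathway lists numbered 0 to 21 with a sample left out, 5 with the GC trend removed and 2 with the block in addition. Calls over all genes, 56 in the fit reported, were 23 with quantile normalization, 96 with the replicate block, 112 with voom, 24 to 2908 with a sample left out, 507 with the GC trend removed and 148 with the block in addition. The samples share only a number, and those numbered alike deviated in opposite directions (r = -0.36 over 11086 genes). With the pairing crossed, an alternative chosen after seeing the data, 6 members, 3 genes of the lists and 487 of all genes passed.

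Of the 15 alternatives, 5 (filters, trend and blocks) leave a fold change as it is. Under the 10 others, 16 of the 35 fold changes were below 0 and 5 above 0 throughout, and 14 changed sign. With quantile normalization Pfkl came to 0.035, Pgk1 to 0.055 and Eno1 to 0.00241. With the GC trend removed, with or without the block, Hk1 came to 0.13, Pfkl to 0.15, Eno2 to 0.085, Pygb to 0.084 and Gys1 to 0.00024. With a sample left out, log2 fold changes ran from -0.45 to 0.41 for Hk1, -0.50 to 0.12 for Gpi1, -0.55 to 0.54 for Pfkl, -0.80 to 0.37 for Pfkfb4, -0.35 to 0.052 for Eno1, -0.31 to 0.16 for Eno2, -0.61 to 0.10 for Pkm, -0.17 to 0.10 for Pdk1, -0.97 to 0.49 for Pdk2, -0.39 to 0.28 for Pygb, -0.45 to 0.17 for Gys1, -0.25 to 0.12 for Gbe1 and -0.61 to 0.20 for Ugp2. All of these were within 0.26 of 0 in the fit reported. The Pfkm to Pfkp ratio ran from -0.49 to 0.19 with a sample left out, and the Aldoa to Aldoc difference was -0.11 with a pseudocount of 1. Why these values moved was not tested. With 2 samples a group, the exact permutation test of a ratio could pass no threshold, and the low members Slc2a3, Slc2a4, Pfkfb1 and Aldoc are limited by their read counts.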
